A study of Mus musculus with 8 samples.

Results

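The genes of cholesterol synthesis and of its regulator SREBP2 were examined in RNA of MC38 tumors from 4 Bmal1+/+ mice and 4 mice labelled Bmal1-/-. The set had 27 of the 55487 genes in the count table and was chosen by name, with earlier results of these data known. It held SREBP2 (Srebf2) with the proteins that hold or release it, 19 enzymes from acetyl-CoA to cholesterol, and 4 genes of sterol transfer, uptake and esterification. MC38 is a mouse colon cancer cell line, here carrying GFP and grown under the skin of Bmal1+/+ and Bmal1-/- mice bred from Bmal1+/- founders. BMAL1 is the transcription factor that drives the circadian clock together with CLOCK. RNA came from the stromal vascular fraction, the cells that remained after GFP-positive cells had been sorted out. All 8 animals carried the tumor, and their age and the hour of collection are not given in the sources used here. Each sample gave 1 library, with a total of 14054825 to 18449143 counts.

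Cells make cholesterol from acetyl-CoA through mevalonate, farnesyl pyrophosphate and squalene. When sterols in the endoplasmic reticulum run low, SCAP carries SREBP2 to the Golgi, where proteases release its active part, and this part raises transcription of nearly every enzyme of the pathway. INSIG1 and INSIG2 retain SCAP when sterols are high. Insig1 is itself a target of SREBP, whereas Insig2 is not driven in that way and is known in liver as a gene repressed by the clock protein REV-ERB alpha (Nr1d1).

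Some marks of the libraries bear on all results below. Bmal1 (Arntl) counts went against the label: they were 0.96 to 2.71 CPM (counts scaled to library size with TMM factors) in Bmal1+/+ libraries and 30.1 to 35.0 CPM in the others, so that group is named by its label alone, as the libraries labelled Bmal1-/-. The counts are per gene and cannot separate a deleted exon from the rest. Of the 16 clock genes listed, 6 were lower and 6 higher in the libraries labelled Bmal1-/-, against 16.2% and 14.9% of all genes tested. Dbp, Nr1d1 and Nr1d2 were among the lower and Npas2 and Arntl among the higher, with values given below. Whether the labels are right was not tested. Xist was at 844 to 1095 CPM in Bmal1+/+ libraries and at 0.14 to 0.75 CPM in those labelled Bmal1-/-, while 4 genes of the Y chromosome summed to 0 and to 121.1 to 144.5 CPM, so genotype and sex cannot be told apart. Liver transcripts led the libraries although the label names tumor stroma. The 10 hepatocyte markers summed to 101700 to 116000 CPM in Bmal1+/+ and to 49250 to 58450 CPM in the libraries labelled Bmal1-/-, a gap that lay almost wholly in Alb (mean 69270 and 16140 CPM). Alb was the 1 marker of the 10 called lower, and the other 9 were not called and summed to 37380 to 44100 and 33540 to 42520 CPM. Those 9 were not all level. Trf had 9994 to 11670 CPM in Bmal1+/+, 5346 to 6390 CPM in replicates 1 to 3 labelled Bmal1-/- and 20280 CPM in replicate 4. Replicate 4 was lowest of its label for Fabp1 (253 against 804 to 1274 CPM) and Ttr (2364 against 3708 to 5364 CPM). The 8 fibroblast markers summed to 133.4 to 213.0 and 100.3 to 105.3 CPM, the 6 endothelial markers to 207.9 to 247.5 and 133.7 to 174.7 CPM, the 7 macrophage and leukocyte markers to 164.2 to 202.2 and 57.57 to 141.6 CPM and the 6 pericyte and smooth muscle markers to 32.25 to 55.68 and 23.34 to 35.14 CPM. The fibroblast activation marker Fap and the pericyte marker Cspg4 were too low to test. The 6 epithelial markers summed to 192.6 to 238.3 and 235.4 to 374.6 CPM, nearly all of it Krt8 and Krt18, with Cdx2 at 0 in every library. In bulk RNA, fewer cells of a type and less RNA per cell cannot be told apart, and the part of these cell types in the results was not tested. Replicate 4 labelled Bmal1-/- stood apart. Its 6 acute-phase genes (Saa1, Saa2, Hp, Orm2, Apcs and Lcn2, listed after the values were seen) summed to 33930 CPM, against 1923 to 3957 CPM in the other 3 of its label and 1273 to 2353 CPM in Bmal1+/+.

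Of the 27 genes, 26 had enough counts to be tested. With edgeR's quasi-likelihood test and a Benjamini-Hochberg adjusted p below 0.05, 11 were lower in the libraries labelled Bmal1-/-, 1 was higher and 14 were not called. Of all 14353 genes tested, 16.2% were lower and 14.9% higher by that rule, so 11 of 26 (42.3%) is above the share for all genes and 1 of 26 is below it. The set was chosen with earlier results of these data known, so these shares describe it and are no independent test. By the study's own criterion, an absolute log2 fold change above 1 with an unadjusted p below 0.05, 10 were lower and 1 was higher, where all genes gave 8.71% lower and 5.41% higher. In 9 of the 26 every library labelled Bmal1-/- was below every Bmal1+/+ library, and in 1 every one was above, against 16.8% and 16.7% of all genes. The median log2 fold change of the 26 was -0.80, with 20 negative and 6 positive, and that of all genes tested was 0.02. The count of 11 rests on which libraries enter. Without replicate 4 labelled Bmal1-/- it was 20, where 16.9% of all genes were lower, and without any other single library between 8 and 10, where 12.9% to 14.2% of all genes were. The study's criterion gave 6 lower without replicate 3 labelled Bmal1-/- and 14 without replicate 4, where 8.51% and 10.2% of all genes were lower.

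**Figure D1:**
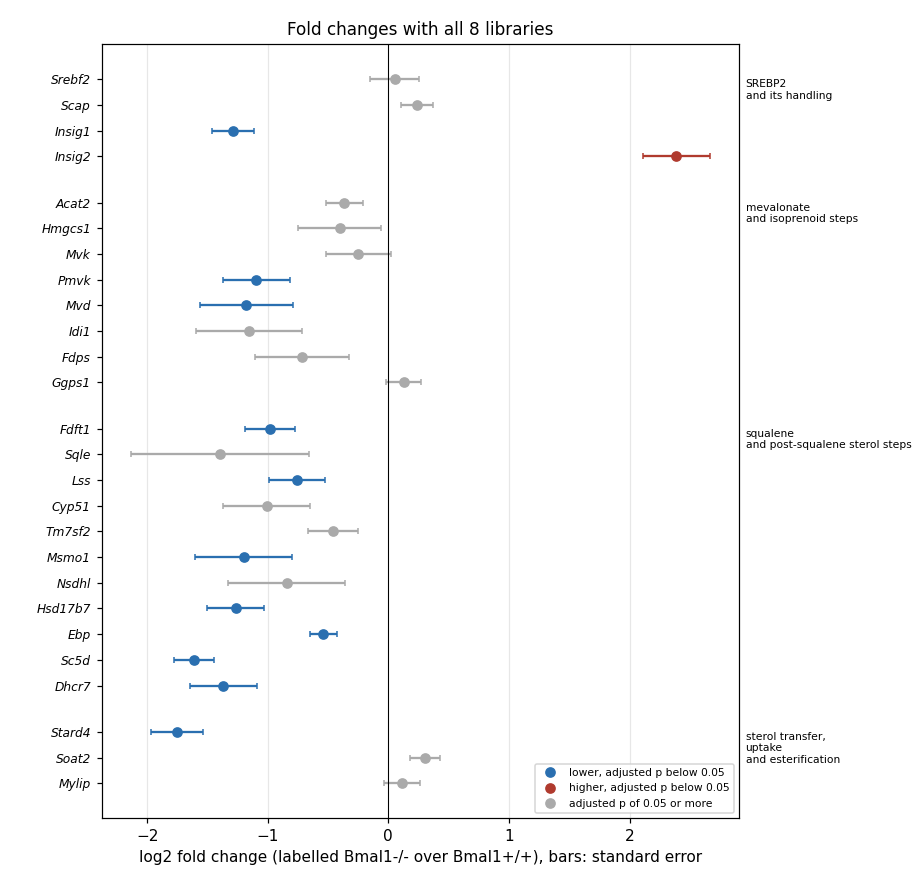
Log2 fold change (libraries labelled Bmal1-/- over Bmal1+/+, n = 4 each) of the 26 genes tested, by role, with bars for the standard error. The 11 genes in blue had an adjusted p below 0.05 and were lower, Insig2 in red was higher at 2.39, and the 14 in grey did not pass. All 11 genes from squalene onward lie left of 0, and Sqle has the widest bar.

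The 5' ends of these genes carried few exact copies of the sterol response element. RefSeq (GRCm38.p6) gave 28 windows from 250 bases before to 50 bases after a start for 22 of the 27 genes. Fdft1, Fdps, Soat2, Sqle and Stard4 had no entry in the table used. Both strands were searched. The letters TCACNCCAC, a common form of the sterol response element, were in the window of 1 of 22 genes, Hmgcs1, and in those of 1.44% of the 27025 genes with a window. Their shorter core TCACNCC, which every match of the longer form contains, was in windows of 5 of 22 genes (Acat2, Hmgcs1, Insig2, Msmo1 and Srebf2) and in those of 17.6% of genes. CCAAT, the letters bound by NF-Y, a partner of SREBP, was in windows of 20 of 22 genes, against 41.1% of genes. The E-box CACGTG, the letters bound by CLOCK and BMAL1 among other factors, was in windows of 5 of 22 (Dhcr7, Hsd17b7, Insig1, Sc5d and Scap), against 8.09% of genes. TAGGTCA, a form of the half-site of ROR and REV-ERB proteins, was near starts of Dhcr7 only, against 2.97% of genes. TGGGTCA, another form, was near starts of Insig2 and Mvk, against 4.57% of genes. The bases beside these letters were not searched. The shares of genes are over all 27025 with a window, including genes not tested in these libraries. A match of letters is a description of the window and says nothing on binding in these samples. 5 windows are shown, written 5' to 3' on the gene's strand. Capitals mark every CCAAT box, E-box, full sterol response element and ROR or REV-ERB half-site, read on either strand. Insig1, Sc5d and Hsd17b7 are shown because all 3 were lower and hold a CCAAT box and an E-box in the same window. The E-box is 101, 98 and 143 bases before the start. Of the other genes with an E-box, Dhcr7 was lower and holds a CCAAT box in a separate window, and Scap was not called. Hmgcs1 is shown for the sterol response element, which begins 137 bases before its start. Of 3 Insig2 windows, the one with TGGGTCA (on the other strand, 199 bases before its start) is shown.
Insig1, chr5:28071162-28071461, + strand: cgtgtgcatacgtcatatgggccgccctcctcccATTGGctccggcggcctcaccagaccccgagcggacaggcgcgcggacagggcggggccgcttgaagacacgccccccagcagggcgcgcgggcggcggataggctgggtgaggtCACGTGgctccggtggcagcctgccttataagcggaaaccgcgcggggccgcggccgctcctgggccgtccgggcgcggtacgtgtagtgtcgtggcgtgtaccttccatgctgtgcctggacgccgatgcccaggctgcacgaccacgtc
Sc5d, chr9:42264251-42264550, - strand: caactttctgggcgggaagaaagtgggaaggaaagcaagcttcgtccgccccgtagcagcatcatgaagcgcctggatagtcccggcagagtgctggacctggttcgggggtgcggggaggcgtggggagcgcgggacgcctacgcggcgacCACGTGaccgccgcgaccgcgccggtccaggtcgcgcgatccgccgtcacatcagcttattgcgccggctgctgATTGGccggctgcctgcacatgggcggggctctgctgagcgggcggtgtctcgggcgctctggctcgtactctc
Hsd17b7, chr1:169969156-169969455, - strand: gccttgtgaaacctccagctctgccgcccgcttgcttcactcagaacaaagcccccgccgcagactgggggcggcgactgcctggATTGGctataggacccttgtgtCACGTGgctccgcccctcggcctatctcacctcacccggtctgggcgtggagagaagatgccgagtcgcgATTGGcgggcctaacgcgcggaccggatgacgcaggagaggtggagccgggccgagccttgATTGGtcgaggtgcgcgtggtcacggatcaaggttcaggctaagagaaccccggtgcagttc
Hmgcs1, chr13:119690101-119690400, + strand: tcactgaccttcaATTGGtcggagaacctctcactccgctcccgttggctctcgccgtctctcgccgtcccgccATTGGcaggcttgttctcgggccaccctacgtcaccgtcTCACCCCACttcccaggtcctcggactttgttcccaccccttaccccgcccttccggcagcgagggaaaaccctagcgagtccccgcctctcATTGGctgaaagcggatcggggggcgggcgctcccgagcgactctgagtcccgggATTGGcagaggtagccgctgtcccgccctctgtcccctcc
Insig2, chr1:121327975-121328274, - strand: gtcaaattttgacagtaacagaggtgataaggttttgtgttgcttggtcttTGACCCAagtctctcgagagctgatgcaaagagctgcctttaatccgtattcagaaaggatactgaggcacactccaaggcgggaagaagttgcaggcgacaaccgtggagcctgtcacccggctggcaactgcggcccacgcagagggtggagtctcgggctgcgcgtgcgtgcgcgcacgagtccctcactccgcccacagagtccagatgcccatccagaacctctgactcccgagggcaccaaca

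The RNAs of the retention proteins of SCAP moved in opposite directions, while Srebf2 and Scap were not called. Insig2 (ENSMUSG00000003721, chromosome 1 from 121304353 to 121332589, minus strand) had 107, 128, 52.5 and 134 CPM in Bmal1+/+ replicates 1 to 4 and 618, 453, 485 and 653 CPM in the replicates labelled Bmal1-/-. The lowest of the second group was over the highest of the first. Insig2 was 5.24-fold higher (log2 fold change 2.39, standard error 0.28, edgeR adjusted p = 0.000247). Insig1 (ENSMUSG00000045294, chromosome 5 from 28071363 to 28078662, plus strand) had 564, 563, 593 and 512 CPM in Bmal1+/+ and 279, 223, 156 and 256 CPM in the libraries labelled Bmal1-/-. It was lower in all 4 of them, 2.44-fold by the fit (log2 fold change -1.29, standard error 0.18, edgeR adjusted p = 0.000621). Per length of transcript, Insig1 was thus the most abundant of the 27 in Bmal1+/+ libraries, at 160 ± 12 FPKM (SD, n = 4) against 13.7 ± 4.66 FPKM for Insig2. In the libraries labelled Bmal1-/- Insig2 came first at 73.5 ± 12.4 FPKM and Insig1 second at 66.7 ± 15.9 FPKM, a difference within their spread.

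Srebf2 (ENSMUSG00000022463, chromosome 15 from 82147181 to 82205379), which encodes the transcription factor itself, had 64.3, 66.1, 64.0 and 58.6 CPM in Bmal1+/+ and 70.6, 55.5, 43.1 and 93.0 CPM in the libraries labelled Bmal1-/-. The groups overlapped, and the second spread wider on both sides of the first (log2 fold change 0.05, standard error 0.20, edgeR adjusted p = 0.870). The sign of this value was not stable over the fits tried. Scap, the escort of SREBP2, was at 124 ± 21.8 CPM and 146 ± 7.23 CPM (SD, n = 4 each, log2 fold change 0.24, standard error 0.13, edgeR adjusted p = 0.202). Of 7 other genes of SREBP processing and sterol-controlled degradation, 2 were lower (28.6%, against 16.2% of all genes tested) and none was higher. Srebf1, which encodes the related factor of fatty acid synthesis, had 284, 244, 321 and 351 CPM in Bmal1+/+ and 157, 177, 148 and 145 CPM in the libraries labelled Bmal1-/-. Srebf1 was lower in each of these, replicate 4 included (log2 fold change -0.93, edgeR adjusted p = 0.000909). Erlin1, an endoplasmic reticulum protein that binds SREBP and its partners, had a log2 fold change of -0.70 (edgeR adjusted p = 0.00265). The proteases Mbtps1 and Mbtps2, which cut SREBP2 in the Golgi, were not called, at log2 fold changes of 0.29 and 0.10.

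**Figure D2:**
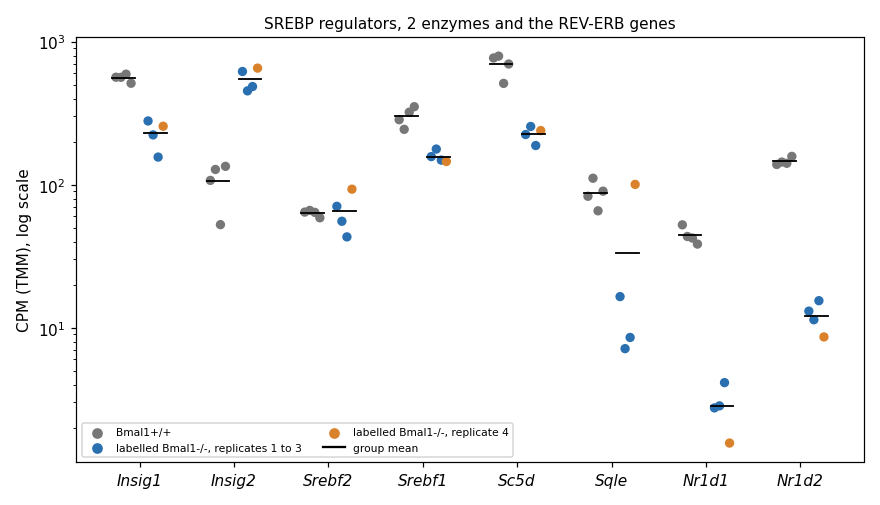
CPM (log scale) in each library of the SREBP regulators, of Sc5d and Sqle, and of the REV-ERB genes Nr1d1 and Nr1d2, with black lines for group means (n = 4). Insig1, Srebf1 and Sc5d were lower and Insig2 higher in all 4 libraries labelled Bmal1-/-, replicate 4 in orange included, whereas replicate 4 is at 100 CPM for Sqle with the other 3 of its label between 7.13 and 16.5 CPM.

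The REV-ERB genes were low in each library labelled Bmal1-/-. Nr1d1 was at 38.4 to 52.4 CPM in Bmal1+/+ and 1.56 to 4.13 CPM in the libraries labelled Bmal1-/- (log2 fold change -3.97, edgeR adjusted p = 5.45e-06). Nr1d2, its close relative, added after its values were seen, was at 138 to 158 CPM and 8.62 to 15.4 CPM (log2 fold change -3.58, edgeR adjusted p = 1.27e-06). Nr1d1 encodes the factor named above as a repressor of Insig2, and whether it bears on Insig2 here was not tested. Of the 16 clock genes listed, 6 were lower and 6 higher, against 16.2% and 14.9% of all genes tested. Npas2, Arntl, Dbp and Nr1d1 had the largest absolute log2 fold changes. Npas2, a partner of BMAL1, was at 0.120 to 0.223 CPM in Bmal1+/+, near the level of 3 counts, and at 31.2 to 42.2 CPM in the libraries labelled Bmal1-/-. Dbp, a clock output gene, had a log2 fold change of -4.32 (edgeR adjusted p = 4.11e-06).

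Over the 19 enzymes, 9 were lower, none was higher and 10 were not called. The share lower was 47.4%, where 16.2% of all genes tested were lower and 14.9% higher. Their CPM summed to 2383, 2690, 1959 and 2673 in Bmal1+/+ replicates 1 to 4 and to 1086, 1072, 896 and 1869 in the replicates labelled Bmal1-/-. All 4 of the second group were below the first, with replicate 4 at 1869 CPM close to the lowest Bmal1+/+ value of 1959 CPM. That separation of replicate 4 rests on Sc5d, the most abundant of the 19 by CPM. Sc5d had 511 CPM in Bmal1+/+ replicate 3 and 239 CPM in replicate 4, a wider gap than that between their sums. With Sc5d left out, replicate 4 falls within the Bmal1+/+ range. The median log2 fold change was -0.98, with 18 of 19 negative.

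Among the 8 enzymes from acetyl-CoA to farnesyl and geranylgeranyl pyrophosphate, 2 were lower (25.0%, against 16.2% of all genes tested). Pmvk, the phosphomevalonate kinase (chromosome 3 from 89454541 to 89469013), had 42.1, 59.8, 34.1 and 31.1 CPM in Bmal1+/+ and 18.0, 14.8, 14.5 and 30.9 CPM in the libraries labelled Bmal1-/-. Replicate 4 thus lay just under the lowest Bmal1+/+ library (log2 fold change -1.09, standard error 0.28, edgeR adjusted p = 0.0153). Mvd, the decarboxylase that follows it (chromosome 8 from 122433601 to 122443422), had 16.5, 19.7, 16.3 and 17.9 CPM and then 6.0, 6.23, 3.20 and 15.7 CPM. Here too replicate 4 was at the edge of the Bmal1+/+ range (log2 fold change -1.18, standard error 0.38, edgeR adjusted p = 0.0415). Mvd was no longer called without a filter on low counts or when any 1 of the other 7 libraries was left out, with adjusted p between 0.000472 and 0.101 over all alternatives.

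The next enzymes showed the same split between replicate 4 and the others more sharply. Idi1, the isomerase that supplies dimethylallyl pyrophosphate (chromosome 13 from 8885501 to 8892451), had 90.7, 98.4, 88.3 and 119 CPM in Bmal1+/+ and 31.3, 22.4, 23.8 and 100 CPM in the libraries labelled Bmal1-/-. Its groups overlapped through replicate 4 alone (log2 fold change -1.16, standard error 0.44, edgeR adjusted p = 0.0719). Hmgcs1, the synthase that makes HMG-CoA (chromosome 13 from 119690379 to 119708260), had 165, 195, 131 and 301 CPM and then 112, 114, 107 and 266 CPM. For Hmgcs1 replicate 4 exceeded 3 of the 4 Bmal1+/+ libraries (log2 fold change -0.40, standard error 0.34, edgeR adjusted p = 0.401). Fdps, which makes farnesyl pyrophosphate, had 105, 149, 87.7 and 128 CPM and then 63.5, 49.6, 32.5 and 141 CPM (log2 fold change -0.72, standard error 0.39, edgeR adjusted p = 0.191). Exons of Fdps share 1124 bases with Gm43738 on the same strand, so reads of these genes may be split. Mvk, the mevalonate kinase, had 16.6 to 18.4 CPM in Bmal1+/+, 8.61 to 14.2 CPM in replicates 1 to 3 labelled Bmal1-/- and 24.6 CPM in replicate 4, which was over all Bmal1+/+ libraries. Mvk (log2 fold change -0.25, edgeR adjusted p = 0.513) and Acat2 (log2 fold change -0.37, edgeR adjusted p = 0.0984), the thiolase that joins acetyl-CoA units, were not called. Ggps1, whose product leads to protein prenylation and not to sterols, was the only enzyme of the 19 with a positive value (log2 fold change 0.13, standard error 0.14, edgeR adjusted p = 0.539) and the only one without replicates 1 to 3 labelled Bmal1-/- below all Bmal1+/+ libraries.

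From squalene onward, 7 of 11 enzymes (63.6%) were lower, against 16.2% of all genes tested. All 11 log2 fold changes were negative, with a median of -1.01. Sc5d, the lathosterol desaturase (ENSMUSG00000032018, chromosome 9 from 42251595 to 42264256), had the largest change among the enzymes called. It had 769, 792, 511 and 698 CPM in Bmal1+/+ and 224, 255, 188 and 239 CPM in the libraries labelled Bmal1-/-. The 4 libraries labelled Bmal1-/- lay close together, replicate 4 among them, and Sc5d was 3.06-fold lower (log2 fold change -1.61, standard error 0.17, edgeR adjusted p = 0.000132). Its FPKM per length went from 111 ± 19.6 to 36.9 ± 4.96 (SD, n = 4 each).

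Hsd17b7 and Dhcr7, also from the late steps, were lower in all 4 libraries, with replicate 4 highest. Hsd17b7, the 3-ketosteroid reductase of the pathway (chromosome 1 from 169949535 to 169969241), had 88.0, 114, 84.2 and 118 CPM in Bmal1+/+ and 40.3, 30.8, 32.2 and 64.8 CPM in the libraries labelled Bmal1-/- (log2 fold change -1.26, standard error 0.24, edgeR adjusted p = 0.00336). Dhcr7, which converts 7-dehydrocholesterol to cholesterol (chromosome 7 from 143823145 to 143848410), had 103, 136, 80.7 and 94.9 CPM and then 45.3, 40.0, 20.2 and 55.2 CPM (log2 fold change -1.37, standard error 0.28, edgeR adjusted p = 0.00501). In neither gene did the groups overlap. Ebp, the sterol isomerase on the X chromosome, went from 181 to 223 CPM to 121 to 148 CPM (log2 fold change -0.54, standard error 0.11, edgeR adjusted p = 0.00573). Ebp was the only synthesis enzyme called lower in which replicate 4 had the lowest value of its label.

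Fdft1, the squalene synthase (chromosome 14 from 63145150 to 63179578), had 80.7, 56.0, 74.0 and 115 CPM in Bmal1+/+ and 36.5, 37.8, 39.1 and 51.0 CPM in the libraries labelled Bmal1-/-. The groups did not overlap (log2 fold change -0.98, standard error 0.21, edgeR adjusted p = 0.00603), but 774 bases of its exons lie opposite exons of Ctsb, and the counting is not stated to use strand. The same limit holds for Ggps1, Cyp51, Hmgcs1, Idi1, Lss and Scap, whose exons lie opposite those of another gene over 166 to 985 bases. Lss, the cyclase that forms lanosterol, had 50.7 to 82.1 CPM and then 25.1 to 54.2 CPM (log2 fold change -0.75, standard error 0.23, edgeR adjusted p = 0.0332). Its adjusted p ran from 0.00779 to 0.0932 over the alternatives, and 6 of 18 lost the call. Msmo1, the methylsterol oxidase, had 110, 128, 115 and 185 CPM in Bmal1+/+ and 40.8, 40.4, 30.5 and 122 CPM in the libraries labelled Bmal1-/-. Replicate 4 was inside the Bmal1+/+ range, and the call (log2 fold change -1.20, standard error 0.41, edgeR adjusted p = 0.0475) was lost in 8 of 18 alternatives, with adjusted p from 0.000259 to 0.12.

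In each of the 4 enzymes from squalene onward that did not pass, replicate 4 was within the Bmal1+/+ range. Sqle, the epoxidase that commits squalene to sterols (ENSMUSG00000022351, chromosome 15 from 59315077 to 59331192), had 83.0, 111, 65.6 and 90 CPM in Bmal1+/+ and 16.5, 7.13, 8.54 and 100 CPM in the libraries labelled Bmal1-/-. Replicates 1 to 3 averaged 10.7 CPM and replicate 4 was 9.37 times as high, which left the fit at a log2 fold change of -1.40 with a standard error of 0.74 (edgeR adjusted p = 0.179). Cyp51, the lanosterol demethylase, had 153, 154, 137 and 188 CPM and then 59.7, 53.3, 44.1 and 156 CPM (log2 fold change -1.01, standard error 0.36, edgeR adjusted p = 0.0575). Nsdhl, a sterol dehydrogenase on the X chromosome, had 45.2, 56.7, 39.1 and 68.2 CPM and then 19.8, 17.7, 11.3 and 67.8 CPM (log2 fold change -0.84, standard error 0.48, edgeR adjusted p = 0.215). Tm7sf2, a sterol reductase, had 90.6 to 138 CPM in Bmal1+/+, 70.6 to 75.9 CPM in replicates 1 to 3 labelled Bmal1-/- and 126 CPM in replicate 4 (log2 fold change -0.46, standard error 0.21, edgeR adjusted p = 0.121). Exons of Tm7sf2 share 532 bases with Vps51 on the same strand.

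**Figure D3:**
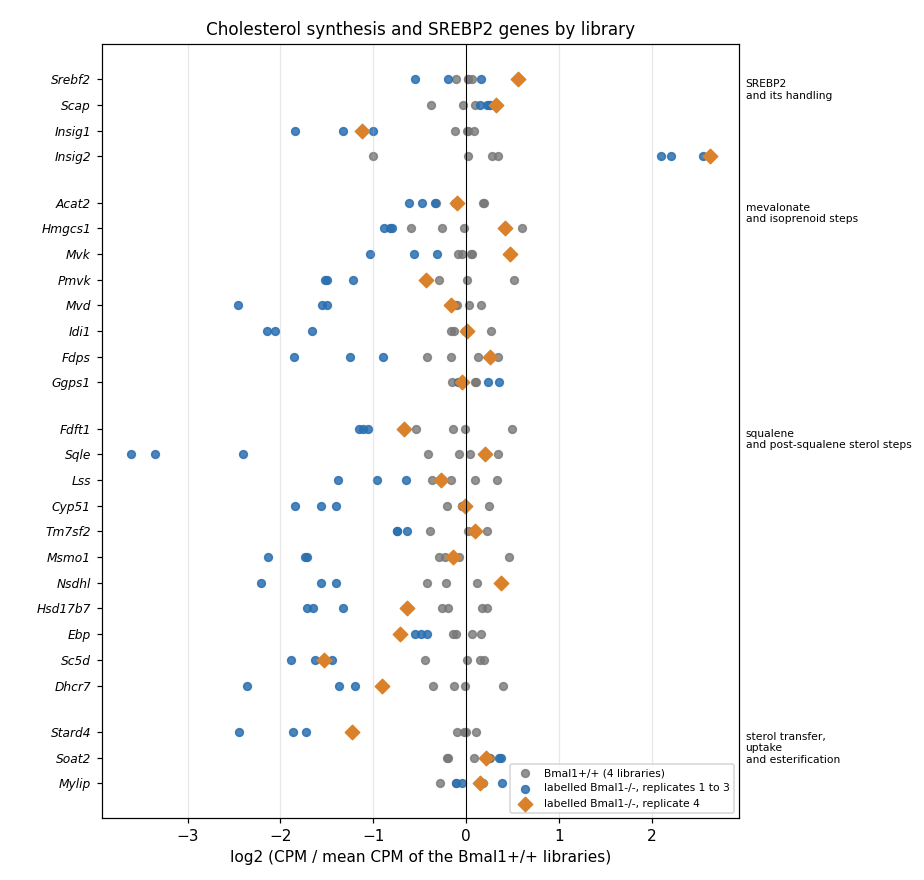
Log2 of CPM over the Bmal1+/+ mean in each library for the 26 genes tested, with Bmal1+/+ libraries in grey, replicates 1 to 3 labelled Bmal1-/- in blue and replicate 4 as an orange diamond. In 18 of the 19 enzymes the 3 blue points lie left of all grey points, and in 10 of these the diamond sits among the grey points.

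Replicate 4 labelled Bmal1-/- was the point on which the enzymes divided, a pattern seen in the values and given here with no test. In 18 of the 19 enzymes replicates 1 to 3 labelled Bmal1-/- were below all Bmal1+/+ libraries. In these 18, replicate 4 was within the Bmal1+/+ range for 10 (Acat2, Hmgcs1, Idi1, Fdps, Sqle, Lss, Cyp51, Tm7sf2, Msmo1 and Nsdhl), above it for Mvk, and below it for 7 (Pmvk, Mvd, Fdft1, Hsd17b7, Ebp, Sc5d and Dhcr7). Over all genes tested, replicates 1 to 3 were below Bmal1+/+ in 2977, and in 19.1% of those replicate 4 was not. Replicate 4 was the highest of its label in 16 of the 19 enzymes and in 28.4% of all genes. The median ratio of replicate 4 to the mean of replicates 1 to 3 was 1.96 for the enzymes and 0.986 for all genes. The same library had the high acute-phase sum given above and the highest macrophage and leukocyte sum of its label, 141.6 CPM against 57.57 to 82.24 CPM. It was also highest of its label for the epithelial sum (374.6 against 235.4 to 262.2 CPM). The same held for the pericyte and smooth muscle sum (35.14 against 23.34 to 29.54 CPM), but not for the fibroblast, endothelial and hepatocyte sums. The part of any of these in the enzyme values was not tested.

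**Figure D4:**
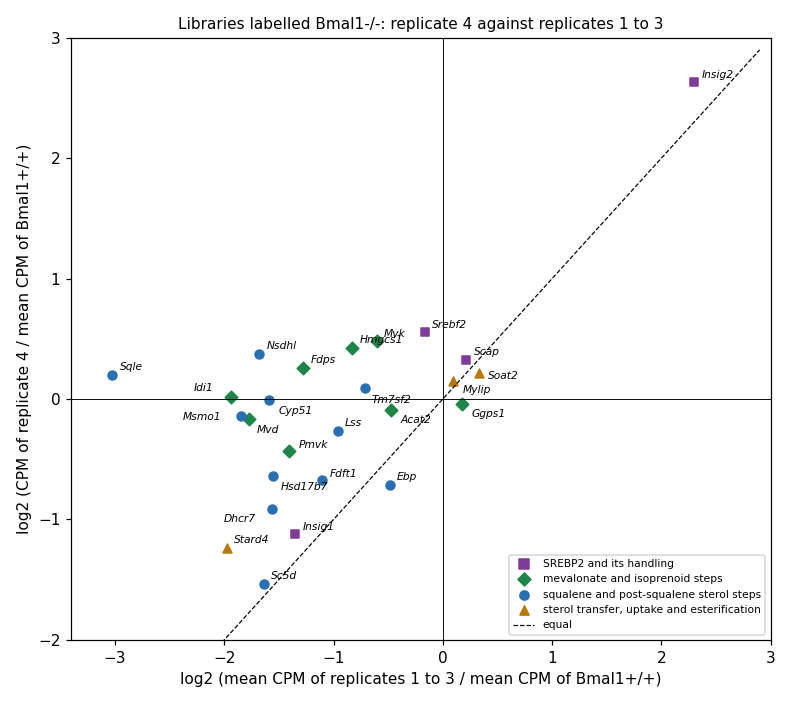
Log2 ratio to the Bmal1+/+ mean of replicate 4 labelled Bmal1-/- (vertical) against that of the mean of replicates 1 to 3 (horizontal), 1 point per gene, with shapes for the role and a dashed line where both are equal. Sqle lies farthest from the line at -3.03 and 0.20, while Sc5d (-1.64 and -1.54), Insig1 and Insig2 lie near it.

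Without replicate 4 labelled Bmal1-/-, 20 of the 26 genes were lower and 1 was higher, against 16.9% lower and 15.0% higher of the 14775 genes tested in that fit. The added calls were Acat2, Hmgcs1, Mvk, Idi1, Fdps, Sqle, Cyp51, Tm7sf2 and Nsdhl, so that 18 of 19 enzymes were then lower. Sqle was 8.10-fold lower in that fit (log2 fold change -3.02, standard error 0.31, edgeR adjusted p = 0.000148, with a range of 0.000148 to 0.316 over the alternatives). Idi1 was 3.83-fold lower (edgeR adjusted p = 5.19e-05, range 5.19e-05 to 0.157) and Cyp51 3.01-fold lower (edgeR adjusted p = 8.95e-05, range 8.95e-05 to 0.137). With every library kept, Sqle, Idi1 and Cyp51 also passed with limma-voom and with the replicate number as a block. Cyp51 passed with DESeq2 too, and Acat2 and Nsdhl with the block. Hmgcs1, Mvk, Fdps and Tm7sf2 passed in no other alternative. The labels describe this library as replicate 4 and title it KO6, out of sequence after KO1 to KO3, and give no reason to leave it out.

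Of the 4 genes of transfer, uptake and esterification, 3 were tested and 1 was lower, against 16.2% of all genes tested. Stard4, a carrier of sterol between membranes and a target of SREBP2 (ENSMUSG00000024378), had 178, 169, 181 and 195 CPM in Bmal1+/+ and 49.7, 54.7, 33.3 and 77.0 CPM in the libraries labelled Bmal1-/-. All 4 were under the lowest Bmal1+/+ library, and its log2 fold change of -1.75 was the most negative of the 26 (standard error 0.22, edgeR adjusted p = 0.000332). Soat2, which esterifies cholesterol in liver and intestine, was at 26.6 ± 4.22 and 32.8 ± 1.8 CPM (SD, n = 4 each, log2 fold change 0.30, edgeR adjusted p = 0.0902). Mylip, a ubiquitin ligase induced through LXR when sterols are in excess, was at 20.9 ± 3.09 and 22.5 ± 3.56 CPM (SD, n = 4 each, log2 fold change 0.11, edgeR adjusted p = 0.599). Npc1l1, the intestinal sterol importer, had at most 1 count in any library and was not tested.

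Genes beside the pathway gave context. Their counts stand beside 16.2% lower and 14.9% higher among all genes tested. The steps that feed and assist synthesis were lower in part. Of 4 genes of acetyl-CoA supply, 2 were lower: Acly, the citrate lyase, at a log2 fold change of -2.23 (edgeR adjusted p = 0.00138), and Acss2, the acetate ligase, at -1.81 (edgeR adjusted p = 0.00254). Of 7 electron donors and accessory proteins of sterol synthesis, 4 were lower and none higher. Por, the reductase that passes electrons to SQLE and CYP51, had 937, 1332, 1177 and 803 CPM in Bmal1+/+ and 101, 156, 192 and 182 CPM in the libraries labelled Bmal1-/- (log2 fold change -2.75, edgeR adjusted p = 4.49e-05). For Por replicate 4 stayed with its label, at 0.171 of the Bmal1+/+ mean. Erg28, a scaffold of the demethylation enzymes, was at a log2 fold change of -0.93 (edgeR adjusted p = 0.0011), Cyb5b at -0.68 (edgeR adjusted p = 0.00633) and Lbr, a second sterol reductase, at -0.60 (edgeR adjusted p = 0.00967).

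Isoprenoid use outside sterols stayed mostly uncalled. Among all genes tested, 16.2% were lower and 14.9% higher. Of 13 genes of prenylation, dolichol and ubiquinone synthesis, none was lower and 1 was higher, Pdss2 (log2 fold change 0.48, edgeR adjusted p = 0.0203), at a list median of 0.19. The call of Pdss2 held in 13 of 18 alternatives (adjusted p 0.015 to 0.0574). Of 18 other genes of sterol uptake, transfer, storage and efflux, 2 were lower and 2 higher, at a median of -0.02. Soat1, which esterifies cholesterol in macrophages and other cells, had a log2 fold change of -1.12 (edgeR adjusted p = 0.00544), and Npc2, which hands on sterol from the lysosome, one of -0.64 (edgeR adjusted p = 0.00525). Scarb1, the receptor for HDL, rose from 98.7 to 119 CPM to 209 to 277 CPM (log2 fold change 1.21, edgeR adjusted p = 0.000112), and Osbp, an oxysterol-binding protein, had a log2 fold change of 0.32 (edgeR adjusted p = 0.0446). The call of Osbp held in 8 of 18 alternatives (adjusted p 0.0354 to 0.119).

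The hydroxylases that turn sterols into bile acids and oxysterols moved in both directions. Of 7 listed, 6 were tested, 3 were lower and 2 higher, against 16.2% and 14.9% of all genes tested. Cyp7a1, the rate-limiting enzyme of classic bile acid synthesis, was at 354 to 422 CPM in Bmal1+/+ and 48.7 to 110 CPM in the libraries labelled Bmal1-/- (log2 fold change -2.53, edgeR adjusted p = 0.000109). Cyp7b1, the hydroxylase of oxysterols that is more abundant in male than in female mouse liver, was at 26.4 to 39.4 CPM and 729 to 1249 CPM (log2 fold change 4.81, edgeR adjusted p = 9.22e-07), and sex and genotype cannot be told apart here. Cyp39a1, an oxysterol hydroxylase (log2 fold change -2.93, edgeR adjusted p = 0.000501), and Cyp46a1, the cholesterol 24-hydroxylase (log2 fold change -2.90, edgeR adjusted p = 0.00512), were lower. Cyp46a1 rested on few counts, at 3.97 to 10.1 CPM in Bmal1+/+ and 0 to 1.42 CPM in the libraries labelled Bmal1-/-. Cyp27a1, which hydroxylates the sterol side chain, was higher (log2 fold change 0.48, edgeR adjusted p = 0.0412). The call of Cyp27a1 held in 10 of 18 alternatives (adjusted p 0.0138 to 0.112).

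Compared per length, the pathway held its order of abundance only in part. In Bmal1+/+ libraries Insig1 at 160 FPKM, Sc5d at 111 FPKM and Ebp at 55.1 ± 5.33 FPKM (SD, n = 4) came first. In the libraries labelled Bmal1-/- Insig2, Insig1, Ebp at 38.7 ± 4.06 FPKM and Sc5d at 36.9 FPKM did, the last 2 within their spread. Of the genes tested, Ggps1 was lowest in both, at 0.733 ± 0.0481 and 0.818 ± 0.137 FPKM (SD, n = 4 each).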

How the data were processed

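RNA of the GFP-negative fraction of MC38 tumors was sequenced in 4 Bmal1+/+ samples and 4 labelled Bmal1-/-, grouped by their genotype labels. Per the paper's methods, HISAT aligned the read pairs to GRCm38, whereas the submitters' processing notes name TopHat2 2.0.6 and CASAVA 1.8. The authors deposited counts of fragments per gene, made with StringTie and left unscaled, and beside them FPKM, which in 11442 of 11442 genes with enough counts equalled the count over the library total and 1 fixed length per gene, within 1%. FPKM served only to compare levels between genes. The design text of the series speaks of array hybridization, and the files hold sequencing counts. Whether counting used strand is not stated.

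From the counts, edgeR 4.0.16 in R 4.3.3 gave TMM-scaled CPM and the quasi-likelihood test (filterByExpr, prior count 0.125, Benjamini-Hochberg adjustment over 14353 genes, threshold 0.05). The study's criterion was an absolute log2 fold change above 1 with p below 0.05. Symbols and positions came from the GENCODE annotation of GRCm38, which held 99.4% of the 55487 gene identifiers. A count of 3 is 0.163 to 0.213 CPM in these libraries, for counting error only. Simulated data were used to test the fit.

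The 27 genes and all gene lists were chosen with earlier results of these data known. All 27 are named. In lists of up to 10 genes each gene with an adjusted p below 0.05 is named, and in longer ones the 4 largest changes. Alternatives were RLE, upper-quartile and library-size scaling, DESeq2 1.42.0, limma-voom (limma 3.58.1), no filter, at least 10 counts in every library, a prior count of 2, the replicate number as a block and leaving out each library. TMM without the 10 hepatocyte and 6 acute-phase genes was added after the data were seen. Motif matches were exact strings, and figures were drawn with matplotlib 3.10.9.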

Additional observations from a re-analysis of the deposited data

Results flagged for a closer look

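In 7 of the 52 sets of 4 libraries tested (26 genes in 2 groups), 1 library stood apart from the other 3 of its group, and in all 7 it was replicate 4 labelled Bmal1-/- on the high side. Chance gives about 1 in 20 sets. Over all genes tested, 6.64% of sets had such a library, and replicate 4 labelled Bmal1-/- stood apart on the high side in 2.41% of genes, against 7 of these 26 (26.9%). The values in that library were 266 CPM for Hmgcs1, 100 CPM for Idi1, 100 CPM for Sqle, 156 CPM for Cyp51, 126 CPM for Tm7sf2, 122 CPM for Msmo1 and 67.8 CPM for Nsdhl. The gap to the next library was 0.85 to 0.96 of the group's whole range, above Dixon's critical value for 4 libraries. These 7 genes are read in the same library and are not independent of each other.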

How the results depend on the processing

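The count of lower genes (11) and of higher genes (1) by adjusted p stayed within 1.5 times under each change of scaling, tool, filter and prior count. Leaving out single libraries gave 8 to 20 lower (20 without replicate 4 labelled Bmal1-/-) and 1 to 2 higher, the second being Soat2 without Bmal1+/+ replicate 3. By the study's criterion the lower count was 6 to 14 over the same leave-outs. The log2 fold change of Srebf2, not called in any fit, turned from 0.05 to -0.005 with limma-voom and -0.004 with the replicate block, and lay between -0.16 and 0.20 as libraries were left out. Over the 26 genes and 18 alternatives, 423 of 468 values kept their direction and side of the threshold, 20 passed it, 22 no longer did and 3 changed sign. The cause was not tested. For the 23 genes named from the other lists, 389 of 412 values kept both and 23 no longer passed, in Cyp27a1, Osbp and Pdss2. With the replicate number as a block (replicate block), 16 genes were lower and 1 was higher. Same-numbered samples did not deviate together (correlations of deviations from -0.0642 to 0.063), so the values give no sign that the numbers pair the samples. Genes near 10 CPM or below, such as Ggps1 and Mvd, rest on the fewest counts.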
